A study of Mus musculus with 6 samples.

Results

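Apolipoproteins are the protein parts of lipoproteins, the particles that carry fat and cholesterol in lymph and blood. The apolipoproteins Apoa1, Apoa2, Apoa4, Apoa5, Apob, Apoc1, Apoc2, Apoc3, Apoe and Apom, 10 genes, were followed in jejunal intestinal epithelial cells (IEC), of 19616 genes in the count table. They were chosen by name, with their difference between control and Hdac1/2-deleted IEC already known, so their levels and fold changes are given below as a description without a test. RNA sequencing covered 3 control mice, of wildtype genotype, named C1, C3 and C3-3, and 3 Hdac1/2-deleted mice, of genotype villin-Cre Hdac1-/-; Hdac2-/-, named H1, H5 and H9. All mice were 3 months old, their mixed background held C57BL/6J, 129SV and CD1, and each gave 1 library of poly(A) RNA. Villin-Cre removes the floxed genes in epithelial cells of the gut, from stem cells to villus tip, and leaves other cells of the tissue untouched. The IEC were enriched from the jejunum with EDTA, not sorted.

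Enterocytes of the jejunum take up fat from the meal and pack it into chylomicrons around 1 molecule of apoB, loading these with apoA-I and apoA-IV before release into lymph. In the circulation, small exchangeable apolipoproteins decide how fast the particle is emptied: apoC-II activates lipoprotein lipase, apoC-III and apoC-I slow lipolysis and uptake, and apoA-V speeds it. ApoE is the ligand by which remnants bind receptors, and apoM carries sphingosine-1-phosphate on high-density lipoprotein (HDL). In adult mammals Apoa5, Apom and Apoc1 are known mainly as liver genes.

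The libraries held 36111035 to 65902344 counted reads. Levels are CPM, counts relative to library size, with library totals scaled by TMM factors, and the detection floor, set at 3 counts, came to 0.0405 to 0.0790 CPM. Such floors cover counting error only. Hdac1 was at 40.8 ± 7.32 CPM in control and 3.77 ± 1.15 CPM in Hdac1/2-deleted IEC (SD, n = 3 mice), whereas Hdac2 was at 27.7 ± 4.71 and 24.5 ± 2.70 CPM. These counts therefore show the deletion of Hdac1 but not that of Hdac2, whose deleted exons are not given in the sources used here, and Hdac1/2-deleted below is the label of the mice. The labelled cell type was present in both groups: 15 markers of intestinal epithelium summed to 24715 to 26860.3 CPM in control and 18744 to 21762 CPM in Hdac1/2-deleted mice, with 1 called higher and 1 lower. Of 16 enterocyte markers, 8 were lower, among them Fabp2 and Lct, and 1, Alpi, was higher, though not without C1, C3-3, H1 or H5 (adjusted p up to 0.0613, edgeR). C3 was the only library with more than 13 counts on 4 Y-linked genes, with 3082, and C1 and C3 held 64.5 and 48.7 CPM of 8 smooth muscle and glia markers together, against 2.65 CPM in C3-3 and 0.632 to 0.813 CPM in Hdac1/2-deleted mice. The sample labels give no sequencing batch. In such bulk samples, fewer cells of a type and less RNA per cell cannot be told apart.

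A gene was called when edgeR gave an adjusted p of at most 0.05 and its level differed at least 2-fold. Of 15618 genes tested, 12.4% were called higher and 12.7% lower in Hdac1/2-deleted IEC, and 53.2% had values that did not overlap between the groups. All 10 apolipoproteins were tested, of which 1, Apoc1, passed the filter on low counts only through the Hdac1/2-deleted mice. Apoc1, Apom, Apoa5 and Apoe were called higher, Apoa4, Apoc3 and Apob lower, and Apoa1, Apoa2 and Apoc2 were not called. The values of 8 did not overlap between the groups, 4 above and 4 below control. Since the genes were selected on this contrast, nothing is read from these counts against the background. The median log2 fold change of the 10 was -0.04, beside -0.01 over all genes tested, whose middle 50% lay between -0.62 and 0.56.

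**Figure D1:**
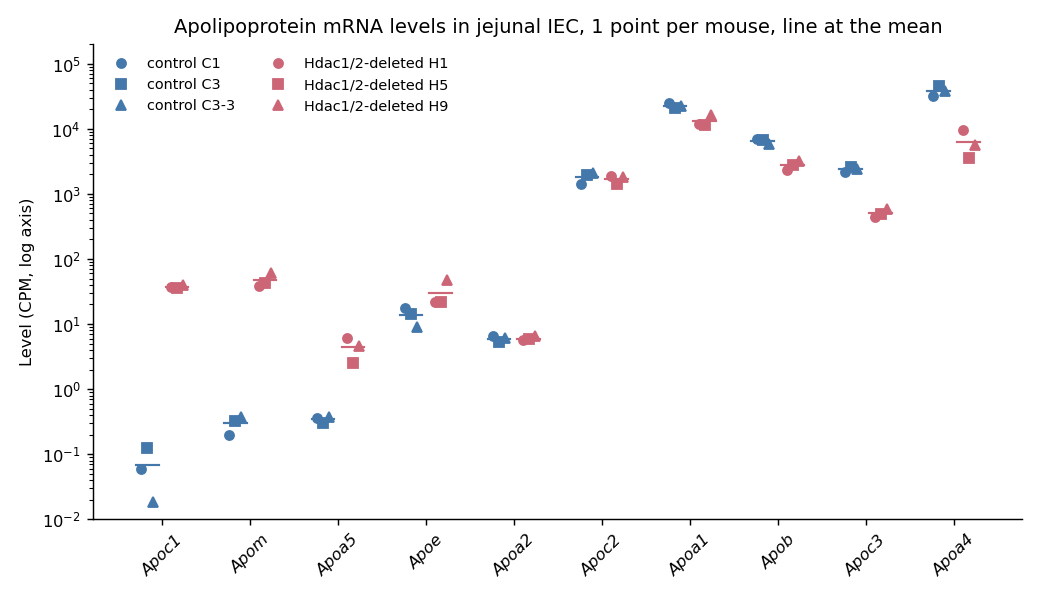
Level of each apolipoprotein in each mouse, in CPM on a log axis, with control mice in blue, Hdac1/2-deleted mice in red and a line at each group's mean (n = 3 mice). Genes are ordered by fold change, from Apoc1, at 0.0188 to 0.126 CPM in control and 36.03 to 40.1 CPM in Hdac1/2-deleted mice, to Apoa4.

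On chromosome 9, genes called in opposite directions lay side by side. Apoa1, Apoc3, Apoa4 and Apoa5 share a cluster of 43340 bases on chromosome 9 from 46228580 to 46271919 (GRCm38, GENCODE annotation), and Apoc2, Apoc4, Apoc1 and Apoe one of 27610 bases on chromosome 7 from 19671579 to 19699188. Promoters of 8 of the 10 genes were found in RefSeq (GRCm38.p6), as 12 windows of 300 bases, and those of Apoc1 and Apoc3 are not shown. The stretches just upstream of the annotated starts of Apoa1, Apoa4 and Apoa5, which differ in direction within 1 cluster, and of Apoe are shown, 5′ to 3′ on the gene's strand, with a TATAAA box in capitals.
Apoa1, chr9:46228430-46228579, plus strand: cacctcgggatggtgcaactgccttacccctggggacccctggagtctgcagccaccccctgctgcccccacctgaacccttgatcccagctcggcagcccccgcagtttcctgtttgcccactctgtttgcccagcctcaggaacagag
Apoa4, chr9:46240594-46240695, plus strand: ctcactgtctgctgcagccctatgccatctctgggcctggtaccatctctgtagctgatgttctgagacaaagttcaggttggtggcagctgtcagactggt
Apoa5, chr9:46268458-46268607, plus strand: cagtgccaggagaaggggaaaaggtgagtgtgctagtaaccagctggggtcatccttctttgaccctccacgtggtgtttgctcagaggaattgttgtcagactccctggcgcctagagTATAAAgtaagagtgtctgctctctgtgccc
Apoe, chr7:19699189-19699338, minus strand: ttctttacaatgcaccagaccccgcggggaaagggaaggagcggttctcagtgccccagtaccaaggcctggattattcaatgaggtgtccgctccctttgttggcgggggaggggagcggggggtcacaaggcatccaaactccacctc
The Apoa4 stretch, of 102 bases, also lies in an exon of the noncoding gene Gm47528 on the other strand. The 12 windows were searched on both strands for short motifs, none of which contains another. TATAAA was found in 5 windows, of Apoa2, Apoa5, Apob and Apoe, and in 13.6% of 32851 windows in the whole table. In the Apoa5 stretch, which leaves 25 bases to the GENCODE start, it stood 51 to 56 bases before that start, and 26 to 31 bases before a further RefSeq start. AGGTCA, a core site of nuclear receptors, was in 2 windows, of Apoa2 and Apoc2, against 16.3% of all windows. CCAAT was in 2, both of Apoa2, against 37.4%. CAAAGTCCA, an HNF4-type site, was in 0 windows against 0.475%, and GGGCGG in 0 against 35.7%. The Apoa1, Apoa4 and Apoe stretches shown held no exact match. Only exact letters were searched, so near variants, such as caaagttca in the Apoa4 stretch, were not counted. Such letter matches are a description only.

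Among the structural apolipoproteins, Apoa4 (chromosome 9, 46240696 to 46243459), the lipid-induced apolipoprotein of chylomicrons was at 32162, 44635 and 38343 CPM in C1, C3 and C3-3 and at 9701, 3574 and 5567 CPM in H1, H5 and H9. The lowest control, C1, was above the highest Hdac1/2-deleted mouse, H1, and H5 was lowest of all. Means were 38380 ± 6237 and 6281 ± 3125 CPM (SD, n = 3), 6.11-fold lower, with a log2 fold change of -2.61 (standard error 0.38). The log2 fold change stayed between -3.07 and -2.32 with each mouse left out in turn. The antisense gene Gm10680 shares 839 bases with Apoa4 and was also lower, at 20.3 ± 4.32 and 4.87 ± 1.13 CPM (log2 fold change -2.06, adjusted p = 0.000262, edgeR quasi-likelihood test). Whether the counting used strand is not given in the sources used here, so reads of the pair cannot be told apart.

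Apoa1 (46228580 to 46230466), the main protein of HDL, was at 25010.1, 20812 and 22272 CPM in C1, C3 and C3-3 and at 12011, 11305.5 and 16320 CPM in H1, H5 and H9. The groups did not overlap, and the highest Hdac1/2-deleted mouse, H9, remained below the lowest control. The log2 fold change was -0.78 (standard error 0.23), less than 2-fold, so that Apoa1 was not called. Its cluster partner Apoa4 therefore differed by more on the log2 scale, and the ratio of Apoa4 to Apoa1 per length was 1.17 ± 0.292 in control and 0.333 ± 0.189 in Hdac1/2-deleted mice.

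Apoa2 (chromosome 1, 171225054 to 171226379), the second protein of HDL, was low in jejunal IEC. It stood at 6.51, 5.33 and 6.02 CPM in the control mice and at 5.60, 5.90 and 6.45 CPM in H1, H5 and H9. The groups overlapped throughout, and the log2 fold change was 0.01 (standard error 0.21).

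Apob (chromosome 12, 7977648 to 8016835) codes for the scaffold of chylomicrons, in IEC as the short form that Apobec1 makes by editing the mRNA. Its level was 6874, 6664 and 5875 CPM in C1, C3 and C3-3 and 2322, 2802 and 3143 CPM in H1, H5 and H9. The groups were apart and varied little within, 1.17-fold among controls and 1.35-fold among Hdac1/2-deleted mice. The log2 fold change was -1.23 (standard error 0.20), with means 2.35-fold apart.

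Of the regulators of lipolysis, Apoc2 and Apoc3 differed. Apoc2 (chromosome 7, 19671579 to 19677941), the activator of lipoprotein lipase, was at 1431, 1934 and 2066 CPM in C1, C3 and C3-3 and at 1859, 1437 and 1800.1 CPM in H1, H5 and H9. The groups overlapped, and the log2 fold change was -0.09 (standard error 0.20). Apoc3 (chromosome 9, 46232933 to 46235636), which restrains lipolysis and remnant uptake, was at 2187, 2564 and 2374 CPM in C1, C3 and C3-3 and at 439, 485 and 576 CPM in H1, H5 and H9. All Hdac1/2-deleted mice were far below all controls, with means 4.75-fold apart and a log2 fold change of -2.25 (standard error 0.18). Per length, the ratio of Apoc3 to Apoc2 was 1.23, 1.06 and 0.921 in C1, C3 and C3-3 and 0.189, 0.271 and 0.257 in H1, H5 and H9.

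Apoc1 (chromosome 7, 19689481 to 19692660), an inhibitor of lipoprotein uptake, had 4, 7 and 1 counts in C1, C3 and C3-3, or 0.0604, 0.126 and 0.0188 CPM. In H1, H5 and H9 it had 2754, 1369 and 2466 counts, or 37.2, 36.03 and 40.1 CPM. C3-3 was under the floor of 3 counts, C1 and C3 were just above it, and the Hdac1/2-deleted mice lay within 1.11-fold of each other. Summed counts were 12 in control and 6589 in Hdac1/2-deleted mice, a ratio of 553 after scaling, with a 95% exact interval of 317 to 1071 for counting error. The fitted log2 fold change was 9.06 (standard error 0.36), the 16th highest of the 15618 genes tested. Without C3, the control with most counts, it was 9.76, and without C3-3 it was 8.67. Over all alternative fits it stayed between 8.52 and 9.76.

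Apoa5 (chromosome 9, 46268633 to 46271919), which promotes lipolysis, was at 0.362, 0.306 and 0.376 CPM in C1, C3 and C3-3 and at 6.13, 2.55 and 4.55 CPM in H1, H5 and H9. The groups did not overlap, and among Hdac1/2-deleted mice H1 was highest and H5 lowest. The summed counts of 61 and 831 gave a ratio of 13.7 (95% exact interval 10.6 to 18.1, counting error), and the log2 fold change was 3.66 (standard error 0.40). A noncoding antisense gene, Gm47544, overlaps Apoa5 over 1331 bases and was not analysed here.

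Apom (chromosome 17, 35128997 to 35132050), the carrier of sphingosine-1-phosphate, had 13, 18 and 20 counts in C1, C3 and C3-3, or 0.196, 0.324 and 0.376 CPM. H1, H5 and H9 had 2848, 1652 and 3783 counts, or 38.4, 43.5 and 61.5 CPM. Every control was above the floor of 3 counts and every Hdac1/2-deleted mouse far above every control. The ratio of summed counts was 164 (95% exact interval 124 to 220.0, counting error), and the log2 fold change was 7.33 (standard error 0.31).

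Apoe (chromosome 7, 19696109 to 19699188), the receptor ligand of remnants, was at 17.9, 14.3 and 8.86 CPM in C1, C3 and C3-3 and at 21.6, 21.8 and 48.0 CPM in H1, H5 and H9. The groups stood apart by a small gap between C1 and H1, and H9 was more than 2-fold above both other Hdac1/2-deleted mice. The log2 fold change was 1.16 (standard error 0.38). It was 0.67 without H9, 0.93 without C3-3 and 1.19 without C3, and in each of these fits Apoe was not called.

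Macrophages are a known source of Apoe. Of 17 macrophage and dendritic cell markers tested, 4 were called higher, namely Csf1r, C1qa, C1qb and Mrc1, and 2 lower, Cd14 among them. The calls of C1qa and C1qb were each lost without C3, C3-3, H5 or H9, with adjusted p up to 0.112 and 0.184 (edgeR). H9 was highest in all 4, with Csf1r at 9.78, 9.13 and 17.9 CPM in H1, H5 and H9 against 2.81, 4.54 and 3.61 CPM in C1, C3 and C3-3. Trem2 was listed at 0 counts in all controls. The summed level of the list, 20 genes, went the other way, with 192 to 212 CPM in control and 78.0 to 117 CPM in Hdac1/2-deleted mice. The part of such cells in the Apoe level was not tested.

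**Figure D2:**
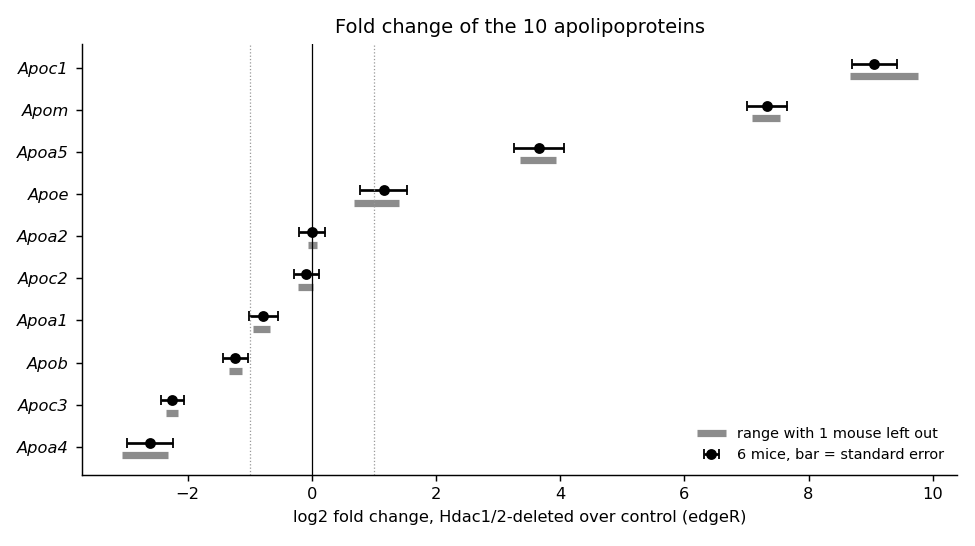
Log2 fold change of each apolipoprotein from edgeR, Hdac1/2-deleted over control, with bars for the standard error over 6 mice and grey bands for the range when 1 mouse is left out. Dotted lines mark 2-fold; the band of Apoe, from 0.67 to 1.40, is the only one that crosses a dotted line.

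Levels between genes can be set side by side only per length, here as TPM, computed here from counts and the summed exon length of each gene in GENCODE. In control IEC the order was Apoa4, Apoa1, Apoc3, Apoc2, Apob, Apoa2, Apoe, Apom, Apoa5 and Apoc1, at means from 51124 TPM for Apoa4 to 0.22 TPM for Apoc1. Apoa4 and Apoa1, Apoc3 and Apoc2, and Apoa5 and Apoc1 were neighbours whose values overlapped. In Hdac1/2-deleted IEC the order was Apoa1, Apoa4, Apoc2, Apoc3, Apob, Apoc1, Apom, Apoe, Apoa2 and Apoa5, and values overlapped between Apoa4 and Apoc2, Apoc1 and Apom, and Apoe and Apoa2. Apoc1 thus went from last of 10 to the 6th place, at 150 ± 8.86 TPM, and its ratio to Apoe per length was 0.0137 ± 0.0102 in control and 4.03 ± 1.41 in Hdac1/2-deleted mice, lowest in H9 at 2.398. It still reached only 0.0245 ± 0.00278 of the level of Apoc2.

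The 10 genes together took 6.81%, 6.83% and 6.50% of all counts in C1, C3 and C3-3 and 3.00%, 2.07% and 2.81% in H1, H5 and H9. Per length, they made up 10.8% ± 0.323 of the TPM of all genes in control and 5.03% ± 0.934 in Hdac1/2-deleted mice. Within that pool, the share of Apoa4 was 47.3% ± 5.36 in control and 19.9% ± 8.40 in Hdac1/2-deleted mice, whereas that of Apoa1 was 41.4% ± 5.94 and 62.9% ± 7.87. Apoc2 took 4.98% ± 0.786 and 12.3% ± 0.817 of the pool, and Apoc3 5.25% ± 0.156 and 2.94% ± 0.552. Apoa1 alone thus made up most of the pool in Hdac1/2-deleted mice, from 53.8% in H1 to 68.0% in H9. Apob held 1.04% ± 0.110 and 1.18% ± 0.275. By TPM among all genes, Apoa1 ranked 1 to 3 in every mouse, and Apoa4 ranked 2, 1 and 1 in C1, C3 and C3-3 and 4, 13 and 10 in H1, H5 and H9. The 5 genes other than these are too low to be seen in the plot of the pool.

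**Figure D3:**
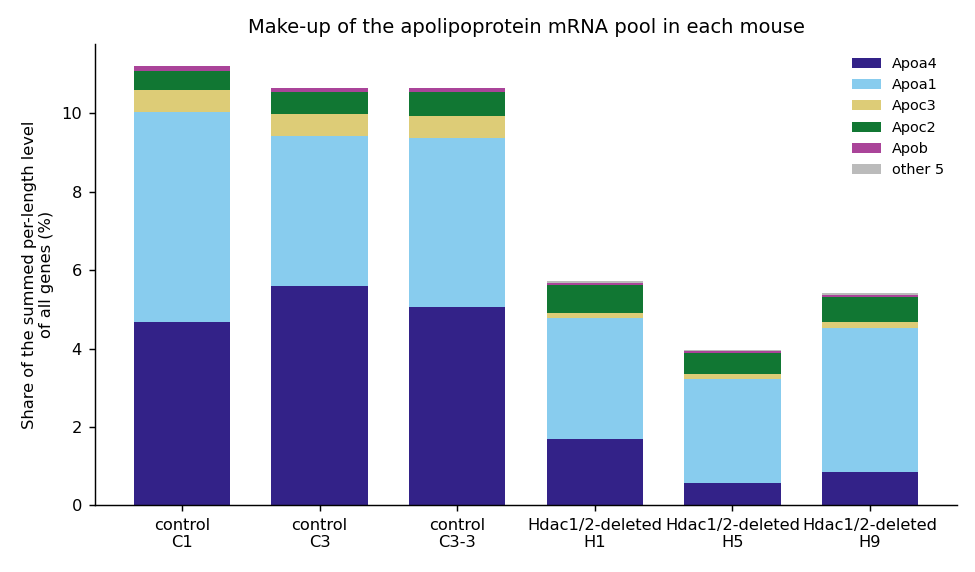
Share of the TPM of all genes, in percent, taken by Apoa4, Apoa1, Apoc3, Apoc2, Apob and the other 5 apolipoproteins together, 1 stacked bar per mouse. The control bars reach 10.7% to 11.2% and the Hdac1/2-deleted bars 3.97% to 5.72%, with the Apoa4 segment shrunken most.

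In the chromosome 9 cluster the order along the chromosome is Apoa1, Apoc3, Apoa4 and Apoa5, with gaps of 2466, 5059 and 25173 bases. The first 3 genes were lower in Hdac1/2-deleted IEC, Apoa1 by less than 2-fold, and the fourth, Apoa5, was higher. In the chromosome 7 cluster the order is Apoc2, Apoc4, Apoc1 and Apoe. Apoc4, a minor apolipoprotein 8001 bases from Apoc1, was at 0.227 ± 0.0699 and 0.268 ± 0.0843 CPM and was not called (log2 fold change 0.25), so that the difference of Apoc1 was not seen in it, though its level was low. A readthrough gene, Gm44805, overlaps both Apoc2 and Apoc4 and was not analysed here. Besides the 10 themselves, the 3 nearest protein-coding genes on each side came to 32 genes, of which 27 were tested, Apoc4 among them. Of these, 5 were called higher, namely Sik3, Zpr1, Tomm40, Nectin2 and Bcam, and 3 lower, namely Nr1i3, Pcp4l1 and Ubxn2a, with a median log2 fold change of 0.13 (edgeR). Nr1i3 and Pcp4l1 lie 4352 and 28785 bases from Apoa2, but Ubxn2a lies 3069942 bases from Apob. Of the genes that flank the clusters directly, Sik3, Zpr1 and Tomm40 had log2 fold changes of 1.58, 1.10 and 1.58, whereas Clptm1, 6545 bases from Apoc2, was not called (0.50, adjusted p = 0.062, edgeR). None of the 6 neighbours of Apom, such as Bag6 (0.13) and D17H6S53E (-0.37), was called. Gpank1 (-0.80, adjusted p = 0.00271, edgeR) and Prrc2a (0.74, adjusted p = 0.00373, edgeR) missed the call on the 2-fold limit only. The nearest tested neighbours of Apoa2, Tomm40l (-0.34) and Fcer1g (-1.13), and of Apob, Ldah (-0.80), were not called either.

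**Figure D4:**
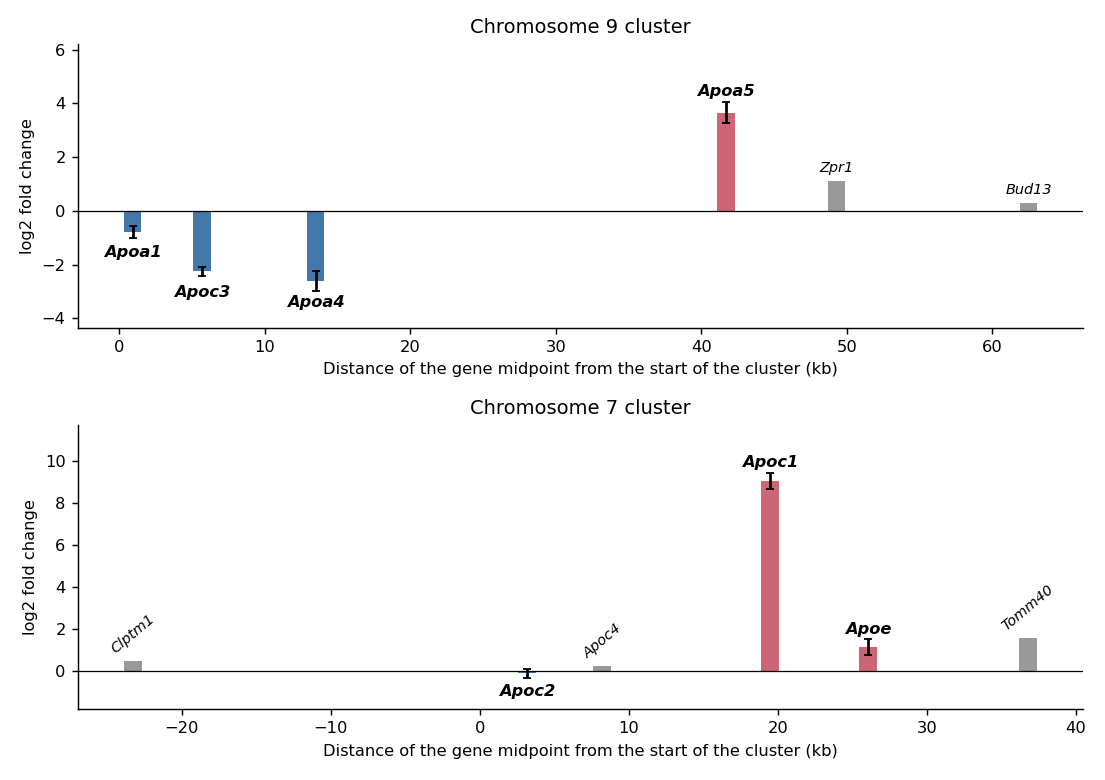
Log2 fold change, Hdac1/2-deleted over control, of genes along both apolipoprotein clusters, against the distance of each gene's midpoint from the start of the cluster in kb. Apolipoproteins are red (higher) or blue (lower) with their standard error, and grey bars are other tested genes with midpoints near the cluster; Apoc1 stands at 9.06 and the adjoining Apoc4 at 0.25.

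Genes that act with the apolipoproteins were followed in 6 lists, of which 144 genes were tested: 21, or 14.6%, were called higher and 18, or 12.5%, lower, with a median log2 fold change of -0.10. These shares lie near the 12.4% and 12.7% of all genes. Adjusted p-values here are from edgeR's quasi-likelihood test over all genes tested. Of 17 other apolipoproteins, 2 were higher, Saa3, an acute phase protein of HDL (log2 fold change 5.88, adjusted p = 0.000312), and Apol8 (5.30, adjusted p = 0.000354), the latter from 2, 4 and 0 counts in C1, C3 and C3-3. The log2 fold change of Apol8 lay between 4.42 and 6.28 over the alternative fits, highest without C3. Like Apoc1, Apol8 passed the filter on low counts only through the Hdac1/2-deleted mice. Apol7a was lower (-1.66, adjusted p = 0.000339), and Clu, also called apolipoprotein J, was at 3.63 ± 1.24 and 5.98 ± 1.38 CPM and was not called.

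Of 34 genes of apoB lipidation and secretion, 2 were higher and 1 lower. Mttp, which loads fat onto apoB, was at 3241, 3997 and 3890 CPM in C1, C3 and C3-3 and at 2496, 2391 and 3063 CPM in H1, H5 and H9, a log2 fold change of -0.48 (adjusted p = 0.068) that was not called, against -1.23 for Apob. Apobec1, the editing enzyme of Apob mRNA, was at 61.4 ± 2.78 and 68.4 ± 9.76 CPM and was not called. Plin2, a coat protein of lipid droplets, was lower (-1.13, adjusted p = 0.000265). The chaperone Pdia4 was higher (1.10, adjusted p = 0.0127) but was below 2-fold without H5, at a log2 fold change of 0.71.

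Of 14 genes that remodel lipoproteins in plasma, 5 were higher and 2 lower, with a median log2 fold change of 0.65. Angptl8, listed as Gm6484, an inhibitor of lipoprotein lipase, was higher (3.29, adjusted p = 0.00049), as were the lipase Lipg (1.39, adjusted p = 0.00548) and the lipase maturation factor Lmf1 (1.07, adjusted p = 0.00146), the last not called without C1, at 0.97. Pon3, an HDL enzyme (-1.64, adjusted p = 0.00557), and Bmp1, which trims the precursor of apoA-I (-1.67, adjusted p = 0.00118), were lower. Lpl itself, whose product apoC-II activates, was at 0.593 ± 0.389 and 0.407 ± 0.112 CPM and was not called.

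Of 21 lipoprotein receptors and uptake proteins, 7 were higher and 4 lower. Lrp2, or megalin, an endocytic receptor that binds apoE, apoB and apoM, was at 0.121, 0.0180 and 0 CPM in C1, C3 and C3-3 and at 12.0, 38.4 and 32.3 CPM in H1, H5 and H9 (log2 fold change 9.03, adjusted p = 0.000267). Its control counts were 8, 1 and 0, and the log2 fold change ranged from 8.35 to 11.24 over the alternative fits, highest without C1. Lrp2 too passed the filter on low counts only through the Hdac1/2-deleted mice. Cubn, or cubilin, the partner of megalin and a receptor for apoA-I, went the other way, from 889, 585 and 858 CPM to 23.9, 42.9 and 95.5 CPM (-3.85, adjusted p = 0.00163). The log2 fold change of Cubn lay between -4.54, without H9, and -3.49 over the alternative fits. Scarb1, the HDL receptor, was higher (2.57, adjusted p = 0.0101), but was not called at an adjusted p limit of 0.01. Its log2 fold change lay between 2.19 and 3.325 over the alternative fits, highest without C3. The fatty acid transporter Cd36 (-4.88, adjusted p = 4.11e-06) and the cholesterol importer Npc1l1 (-1.57, adjusted p = 0.00346) were lower.

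Of 15 genes of cholesterol handling, listed for efflux to apolipoproteins, 2 were higher, Soat1 (1.18) and Npc2 (1.07), the latter not called without H9, at 0.93. In turn 4 were lower, Cyp27a1 (-2.87), Abca7 (-1.93), Abcg8 (-1.47) and Stard4 (-1.25), the last not called without H5, at -0.98. Abca1, which hands cholesterol to apoA-I, was at 22.2 ± 12.0 and 26.6 ± 6.18 CPM and was not called. Abcg5, the partner of Abcg8, was at 480.3 ± 27.2 and 340.5 ± 57.6 CPM and was below the 2-fold limit (-0.50, adjusted p = 0.0394).

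Of 43 transcription factors and cofactors known to act on apolipoprotein genes, 3 were higher and 6 lower. Hnf4a, a factor of the chromosome 9 cluster and of Apob, was at 728 ± 43.7 and 593 ± 33.3 CPM (-0.30, adjusted p = 0.132) and was not called. Creb3l3, a factor of lipid metabolism in liver and gut, was lower, at 792, 713 and 945.5 CPM in C1, C3 and C3-3 and 356.5, 301 and 424 CPM in H1, H5 and H9 (-1.18, adjusted p = 0.00118). Foxa3 (1.71, adjusted p = 7.41e-05) and Ppargc1b (1.52, adjusted p = 0.000295) were higher. Srebf1 (-1.94, adjusted p = 0.000496) and Nr1d1 (-1.60, adjusted p = 0.0393) were lower, Nr1d1 not without C3, C3-3, H1 or H5, with adjusted p up to 0.115. Nr1h3, the oxysterol receptor LXR alpha, was at 85.5 ± 4.01 and 65.3 ± 7.64 CPM and did not reach 2-fold.

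**Figure D5:**
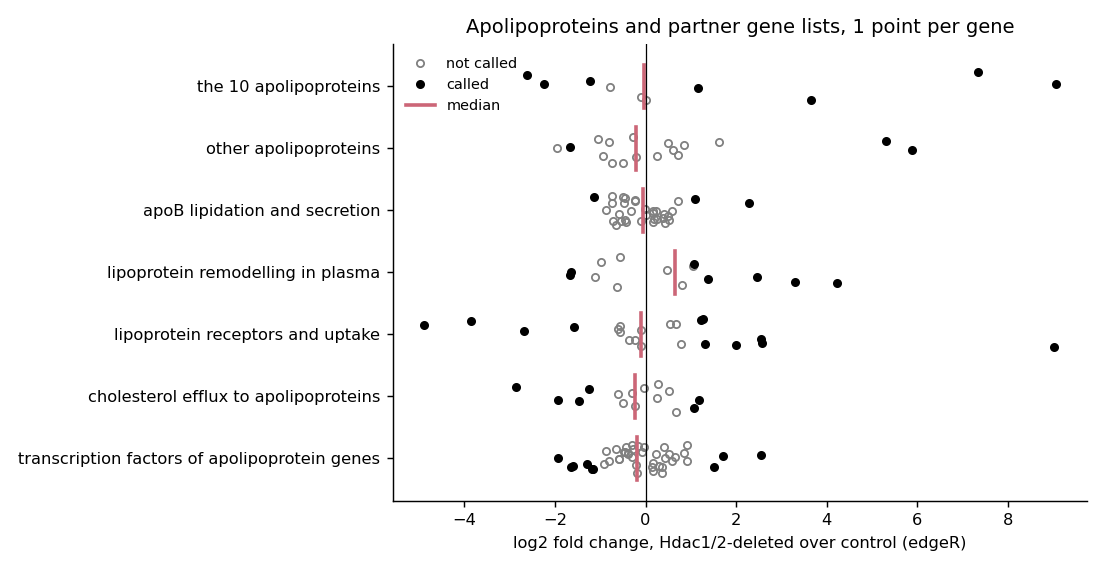
Log2 fold change of each tested gene, Hdac1/2-deleted over control, for the 10 apolipoproteins and 6 lists of genes that act with them, with filled points for called genes and a red line at each median. The apolipoproteins spread from -2.61 to 9.06 around a median near 0, and the plasma remodelling list has the highest median, 0.65.

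Markers of liver and of fetal tissue were looked at beside the liver-type apolipoproteins. Of 15 hepatocyte markers tested, 7 were higher and 3 lower, with a median log2 fold change of 2.76, and the list summed to 497 to 711 CPM in control and 609.8 to 893.5 CPM in Hdac1/2-deleted mice. Those higher included Ttr (1.56 to 26.3 CPM in the means), Hpx (0.0683 to 9.67 CPM) and Ass1 (2.46 to 32.2 CPM). Alb, the main product of hepatocytes, was lower, at 0.909 CPM in control and 0.259 CPM in Hdac1/2-deleted mice, and Cyp2e1 was listed at 0 counts in all Hdac1/2-deleted mice. Of 10 markers of visceral yolk sac and fetal gut, which also make apolipoproteins, 6 were higher, among them Igf2, H19, Trf and Rbp4, and 1, Cubn, lower, with sums of 853 to 1152 CPM in control and 5041 to 7319 CPM in Hdac1/2-deleted mice. Afp, a defining product of yolk sac, was at 32.9 ± 4.22 and 34.8 ± 3.11 CPM and was not called. Their part in the levels of Apoc1, Apom and Apoa5 was not tested.

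Of 10 villus tip markers, 3 were lower and 1 higher. Of the 3, Slc28a2 was lower in every fit, Ada was not called without H5 or H9 (adjusted p up to 0.0775, edgeR), and Enpp3 was below 2-fold without H1. Of 10 proximal markers 4 were lower and 1 higher, and of 10 distal markers 2 were lower and 2 higher. The summed enterocyte markers came to 37812 to 48982 CPM in control and 24987 to 32645 CPM in Hdac1/2-deleted mice, lowest in H5. H5 was also lowest for Apoa4 and Apoa1, but Apoc3 and Apob were lowest in H1. Whether the lower levels of Apoa4, Apoc3 and Apob follow the enterocyte content was not tested. For other cells, 15 T lymphocyte markers gave 1 higher, Cd4, and 2 lower, Cd3g and Cd8a, with 5 lower by DESeq2. Cd4 was not called without H9, and neither Cd3g nor Cd8a without C3, C3-3, H1 or H5. Further, 9 fibroblast markers 1 and 1, and 8 endothelial markers 1 and 1.

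The genes with the pattern most like that of Apoc1 over the 6 mice, among 8590 genes whose log2 CPM averaged 3 or more, were Nid1, S100a5, Dpcr1, Igf2 and Slc38a3, at distances of 1.12 to 1.64 on the centred log2 scale. Those most like Apoa4 were Gm14085, Ncoa7, Leap2, Slc35a5 and Slc28a2, at distances of 0.496 to 0.663. Levels themselves could differ, as each gene was centred on its own mean. The log2 fold changes were 7.95 to 9.82 in the genes like Apoc1 and -2.91 to -2.49 in those like Apoa4. Likeness thus rests largely on the difference between the groups, which was known when the apolipoproteins were chosen. In control, Apoc1 was near the 0.05 CPM added before the logarithm. This describes likeness of pattern over 6 mice and no more.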

How the data were processed

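Paired-end reads of poly(A) RNA from 3 control and 3 Hdac1/2-deleted mice were aligned by the authors with STAR to GRCm38 according to their methods, whereas the submitters' processing notes name STAR 2.4.0f1 and mm9. The counting program and annotation are not given in the sources used here. The authors deposited raw counts per gene, which all tests used. The deposited scores (counts times 1 factor per sample, rounded) and the authors' log2 fold changes, mean log2 CPM and p-values from their own comparison were not used.

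Counts were filtered with filterByExpr (about 0.163 CPM in 3 samples), which left 15618 of 19616 genes, scaled with TMM and fitted with the robust quasi-likelihood model of edgeR 4.0.16 (R 4.3.3) on all 6 mice without covariates, at a prior count of 0.125. P-values were adjusted by Benjamini-Hochberg across the tested genes. The call limits were 0.05 and 2-fold. The standard error is the log2 fold change over the square root of F. With 3 against 3, an exact permutation test has a smallest p of 0.1. Alternatives changed the scaling, the filter, the prior count, the dispersion fit and the p limit, used DESeq2 1.42.0, or left out each mouse. The steps were also run on simulated data with far fewer changed genes than were called here. That run did not check the scaling under so broad a difference. TPM were computed from counts and the union of exons in GENCODE M21, matched by gene identifier.

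The 10 apolipoproteins, the partner and marker lists, the motifs and the alternatives were chosen with earlier results of these data known. Named were all 10, called or fixed partners (at most 3 rises and 3 falls per list at a mean log2 CPM of at least 3), called and adjoining neighbours, called markers and, for the largest rise and fall, the 5 genes of most like pattern. Gm10680 and the Y-linked genes were added after their values were seen. Some genes and 1 motif that these rules take are not reported here.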

Additional observations from a re-analysis of the deposited data

How the results depend on the processing

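Apart from Apoe, each apolipoprotein kept its side of the limits in every one of 16 alternatives, or 15 for Apoc1, which the filter of 10 counts in every sample removed. Apoe kept its call in 10 of 16. Its call was lost with upper-quartile factors, without a filter, at an adjusted p of 0.01 and without C3, C3-3 or H9. Scaling by library totals only brought the median log2 fold change of all genes from -0.01 to 0.18 and that of Apoc2 to 0.11, below the new median, with Apoa2 at 0.19. The factors computed without the 10 genes, chosen after seeing the data, changed none of the 10 calls. With 1 neighbour on each side in place of 3, 10 genes were tested and 3 were called higher and 0 lower by edgeR, with 3 lower at an unadjusted p under 0.05 and 1 by DESeq2. With each mouse left out, 3 to 5 neighbours were called lower, 5 of them without C1. Without division by length, Apoa1 took 31.8% and 54.0% of the pooled counts of the 10 genes and Apoc2 2.52% and 6.95%, so that both shares were still higher in Hdac1/2-deleted mice. Among values of single genes and shares under an alternative, 223 moved by less than the replicate spread and 26 by more. Plin2, Creb3l3 and Nr3c1 were below 2-fold with library totals only. Of 7 B and plasma cell markers 1 was called higher and 0 lower, with 0 lower at an unadjusted p under 0.05 and 0 by DESeq2, and of 6 smooth muscle and glia markers 5 were lower and 0 higher, with 0 higher at an unadjusted p under 0.05 and 0 by DESeq2. No paired analysis was possible because the labels give the groups no shared replicate numbers beyond 1. Depth limits Apoc1 in control mice, where 12 counts stand behind its level.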
